A study of Mus musculus with 6 samples.

Results

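The capillaries of the mouse lung are built of a pair of endothelial cell (EC) states, and 10 genes known to mark them were followed here in 6 RNA-seq libraries, 3 from WT and 3 from leene-KO mice. The aerocyte genes were Car4, Apln, Tbx2, Fibin and Emcn, and the general capillary genes were Aplnr, Plvap, Kit, Hilpda and Ptn. They were found by their gene symbols among the 47729 genes in the count files, and all 10 were found and passed the filter on low counts that left 14625 genes. None of them shared exon bases with another gene on its own strand.

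All 6 libraries were made from CD31-enriched lung cells of male mice, 14 weeks old and on normal chow, that carried an osmotic pump delivering AngII at 1000 ng/kg/min for 2 weeks. The KO mice lack the region homologous to human LEENE, a long noncoding RNA of ECs, and there was no group without AngII. The study's methods name CD144 as the sorting antigen and the labels CD31. The labels state that cells of 3 mice per group were pooled, and it was not settled whether a library is 1 mouse or a share of a pool, so the p-values measure the spread between libraries only, which may be technical. The lncRNA genes of the deleted region (Gm41148, Gm49302 and Gm35360) have 0 rows in the count files, so the genotypes rest on the labels.

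Aerocytes are large, thin capillary ECs that line the gas exchange surface of the alveolus, and general capillary cells are the smaller ECs that regulate vessel tone and act as stem cells when capillaries are repaired. The pair is joined by signals between the cells. Aerocytes make apelin, the peptide encoded by Apln, whose receptor Aplnr lies on general capillary cells. General capillary cells also carry Kit, the receptor for the stem cell factor encoded by Kitl, which is listed here among aerocyte genes. Aerocytes also depend on VEGF from the alveolar epithelium, which they sense through the receptor encoded by Kdr.

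The promoters of 3 members are shown, since the levels of Car4 and Kit ran in parallel across the 6 libraries while that of Hilpda did not. Each is a window of 300 bases from RefSeq (GRCm38), 250 before the annotated start and 50 after it, and 7 of the 10 members had an entry (not Tbx2, Aplnr and Plvap). Capitals mark matches on either strand to ACGTG or GCGTG, the core of the element bound by hypoxia-inducible factors, to CCGGAA, a core bound by ETS factors such as the endothelial factor ERG, and to GATAAG, a core bound by GATA factors. The Car4 window lies on the plus strand at chr11:84957504-84957803, the Kit window on the plus strand at chr5:75574737-75575036, and the Hilpda window, the downstream of a pair of annotated starts, on the plus strand at chr6:29272376-29272675.
Car4: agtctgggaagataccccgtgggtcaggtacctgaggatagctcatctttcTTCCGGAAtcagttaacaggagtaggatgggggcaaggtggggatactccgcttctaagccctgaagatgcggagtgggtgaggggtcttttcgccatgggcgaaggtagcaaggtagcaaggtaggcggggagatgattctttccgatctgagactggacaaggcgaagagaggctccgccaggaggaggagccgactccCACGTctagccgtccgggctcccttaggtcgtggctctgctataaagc
Kit: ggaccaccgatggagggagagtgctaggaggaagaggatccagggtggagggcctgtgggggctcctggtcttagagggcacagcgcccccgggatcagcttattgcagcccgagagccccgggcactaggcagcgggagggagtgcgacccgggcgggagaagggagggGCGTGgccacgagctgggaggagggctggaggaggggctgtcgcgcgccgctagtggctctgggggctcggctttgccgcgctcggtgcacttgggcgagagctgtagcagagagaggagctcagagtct
Hilpda: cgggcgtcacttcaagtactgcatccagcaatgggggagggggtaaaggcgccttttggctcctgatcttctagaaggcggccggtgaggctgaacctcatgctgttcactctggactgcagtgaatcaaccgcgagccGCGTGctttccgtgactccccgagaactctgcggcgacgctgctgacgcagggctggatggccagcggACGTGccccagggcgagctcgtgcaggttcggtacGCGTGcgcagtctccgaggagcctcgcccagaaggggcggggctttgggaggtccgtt

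In the Hilpda window there were 3 matches to the hypoxia core, 1 of ACGTG and 2 of GCGTG. The window at the upstream start of Hilpda overlaps the one shown and held 1 match to GCGTG. The Kit window held 1 match to GCGTG, and the Car4 window held 1 to ACGTG and a palindrome that matches CCGGAA on both strands. Such matches are common, as 43.8% of all 32851 windows held ACGTG or GCGTG, 14.9% held CCGGAA and 7.44% held GATAAG. They describe these letters alone.

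The libraries held 24464324 to 35184063 counts each, of which 37.4% to 54.5% lay on mitochondrial genes. WT replicate 1 had the highest TMM scaling factor (1.37, against 0.874 to 1.04 in the other 5). Of 15 genes expressed by ECs in general, all were detected in every library. With no library of unsorted lung cells, this does not measure how far ECs were enriched. Levels are given as CPM, counts relative to the TMM-scaled library size, always in the order of replicates 1, 2 and 3. Pecam1, which encodes CD31, had 313, 440 and 582 CPM in WT, against 563, 379 and 449 CPM in KO. Cdh5, which encodes CD144, was at 178, 365 and 578 CPM in WT, against 753, 340 and 499 CPM in KO. The groups overlapped for both. The 15 genes summed to 2474, 2812 and 4356 CPM in WT and to 4368, 2721 and 3686 CPM in KO, with WT replicate 1 the lowest and WT replicate 3 and KO replicate 1 the highest. In each library the 5 alveolar type II genes and the 4 airway genes each summed to more, at 4934 to 46390 and 15362 to 56788 CPM. In libraries of mixed cells, fewer cells of a type and less RNA per cell cannot be told apart.

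Levels of different genes were compared as CPM per kilobase of exon. Plvap was the highest of the 10, at 125 CPM per kilobase on average over the 6 libraries, and lay at the 98.9th percentile of the genes tested. Hilpda followed at 71.0, Car4 at 39.5, Tbx2 at 29.2, Apln at 18.7, Emcn at 10.4, Fibin at 9.34, Kit at 8.01 and Aplnr at 5.51 CPM per kilobase. Ptn stood apart at 0.302 CPM per kilobase, the 10.6th percentile, and was the only one whose libraries all lay below those of its neighbor. For the other neighbors the ranges over the 6 libraries overlapped. Car4 was higher than Tbx2 by less than the SD of Car4 between libraries (10.3 against 16.3 CPM per kilobase). Emcn and Fibin, Fibin and Kit, and Kit and Aplnr were likewise closer than the larger SD of each pair. Within libraries, Emcn was above Fibin in 4 of 6, Car4 above Tbx2 and Fibin above Kit in 5, and Kit above Aplnr in 6.

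No aerocyte or general capillary gene passed the test between KO and WT. With the quasi-likelihood test of edgeR, adjusted by Benjamini-Hochberg over all 14625 genes, 0 of the 10 members had an adjusted p under 0.05, against 0.109% of all genes tested (KO higher in 0.0342% and lower in 0.0752%). Hilpda alone, 1 of 10, had an unadjusted p under 0.05 and was lower in KO, against 10.3% of all genes (5.62% higher and 4.68% lower). DESeq2 called 0 of the 10, against 1.21% of the genes it tested, and limma-voom 0 of the 10, against 0.178%. The groups did not overlap for 1 of the 10, against 17.8% of all genes. The 5 aerocyte genes all had positive log2 fold changes, from 0.27 to 0.45 with a median of 0.39. Of the 5 general capillary genes 4 were positive and 1 negative, with a median of 0.28. The median over all genes tested was 0.03, with 7911 of 14625 positive, and that over the 15 EC genes 0.15, with 13 positive.

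**Figure D1:**
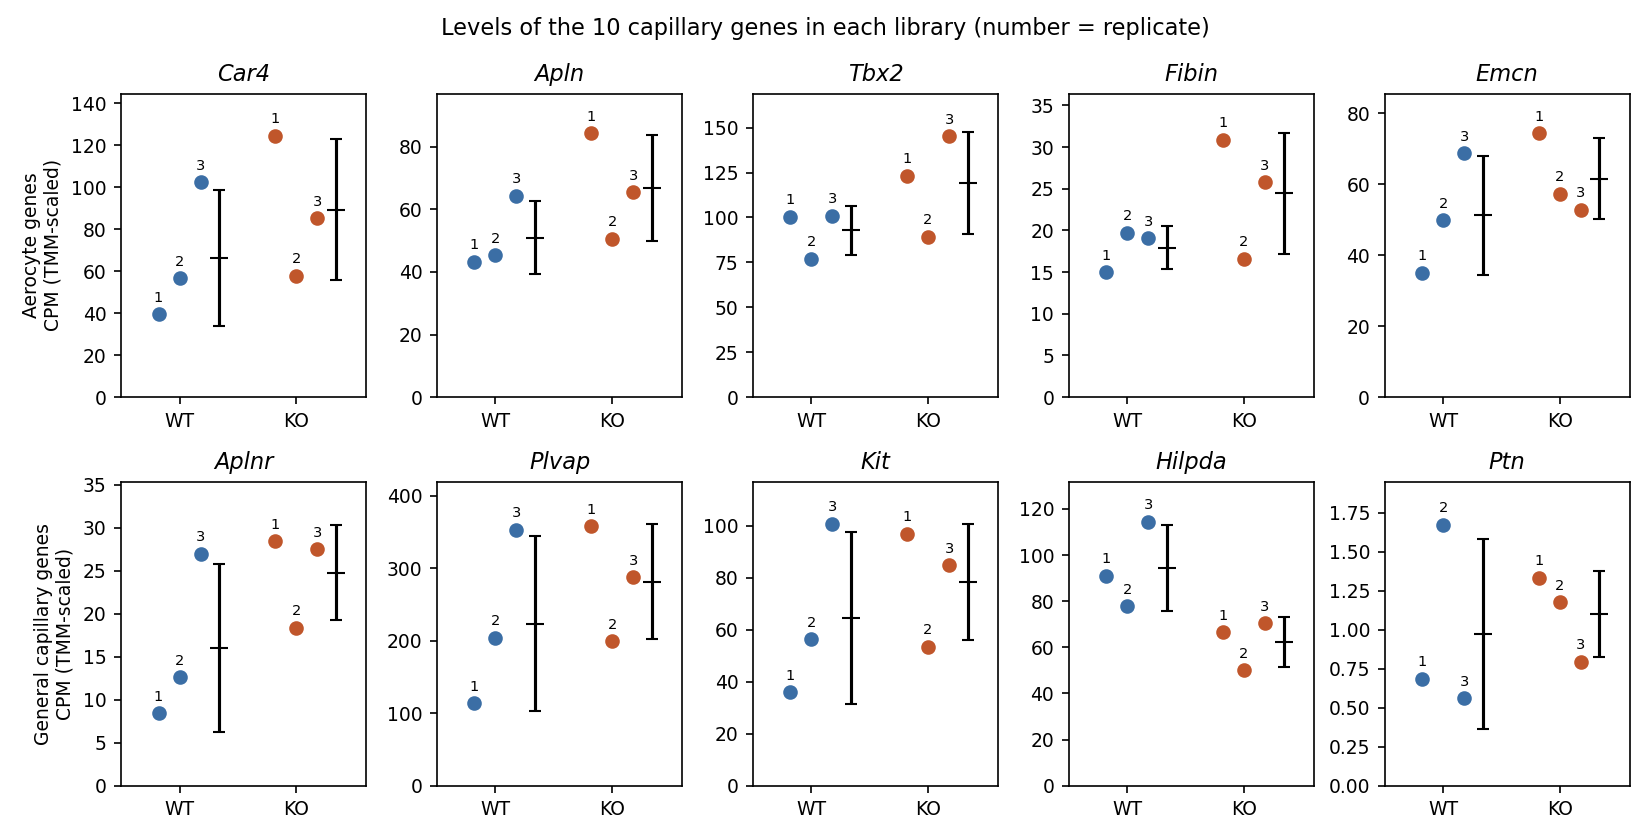
Level of each capillary gene in CPM (vertical axis, from 0) in the 3 WT (blue) and 3 KO (orange) libraries, with the replicate number above each point and the mean ± SD beside each group. Hilpda is the only one of the 10 whose groups do not overlap, with KO at 50.1 to 70.4 CPM and WT at 77.8 to 114 CPM.

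Car4 encodes carbonic anhydrase 4, which is anchored on the luminal face of aerocytes (chromosome 11, 84957786 to 84966044, GRCm38, plus strand). The WT libraries held 39.5, 56.7 and 102 CPM of it, the KO libraries 125, 57.8 and 85.1 CPM. WT replicate 1 was the lowest and KO replicate 1 the highest, and the groups overlapped. The WT mean was 66.2 ± 32.5 CPM (SD, n = 3), the KO mean 89.1 ± 33.5 CPM (SD, n = 3), and the log2 fold change 0.43 (SE 0.39, edgeR adjusted p = 0.695). The 95% interval of the fold ran from 0.722 to 2.52, so a decrease as well as an increase lies inside it. The log2 value was 0.089 without KO replicate 1, 0.16 without WT replicate 1 and 0.87 without WT replicate 3.

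Apln encodes apelin, the ligand that aerocytes send to general capillary cells (chromosome X, 48025146 to 48034853, minus strand). It was at 43.2, 45.3 and 64.3 CPM in WT, against 84.3, 50.6 and 65.5 CPM in KO. Only WT replicate 3 was above the lowest KO library, which was KO replicate 2. The log2 fold change was 0.39 (SE 0.23, edgeR adjusted p = 0.577), with a 95% interval of the fold from 0.907 to 1.90.

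Tbx2 encodes a T-box transcription factor of aerocytes, which is also made by lung mesenchyme (chromosome 11, 85832551 to 85841948, plus strand). It was at 100.5, 76.9 and 101 CPM in WT, against 123, 89.2 and 145 CPM in KO. KO replicates 1 and 3 were above every WT library and KO replicate 2 was within the WT range. The log2 fold change was 0.36 (SE 0.21, edgeR adjusted p = 0.577). Tbx2 differed from the other aerocyte genes in that WT replicate 1 was among its higher WT libraries.

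Fibin, which encodes a small secreted protein (chromosome 2, 110360917 to 110363183, minus strand), was at 14.98, 19.7 and 19.1 CPM in WT, against 30.9, 16.6 and 25.8 CPM in KO. As with Tbx2, KO replicates 1 and 3 lay above the WT libraries and KO replicate 2 among them. Its log2 fold change was 0.45 (SE 0.24, edgeR adjusted p = 0.544). Emcn, which encodes the sialoglycoprotein endomucin of capillary and venous ECs (chromosome 3, 137341067 to 137432185, plus strand), was at 35.1, 49.8 and 68.7 CPM in WT, against 74.4, 57.2 and 52.8 CPM in KO. Here the KO libraries lay mostly inside the WT range, and the log2 fold change was 0.27 (SE 0.25, edgeR adjusted p = 0.711). It was 0.049 without WT replicate 1 and 0.52 without WT replicate 3.

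Aplnr encodes the apelin receptor, the G protein-coupled receptor by which general capillary cells sense apelin (chromosome 2, 85136225 to 85139923, plus strand). It was at 8.40, 12.6 and 27.0 CPM in WT, against 28.5, 18.4 and 27.5 CPM in KO. WT replicates 1 and 2 were below every KO library and WT replicate 3 was among the KO libraries. The WT mean was 16.0 ± 9.74 CPM (SD, n = 3) and the KO mean 24.8 ± 5.55 CPM (SD, n = 3). The log2 fold change of Aplnr was 0.64 (SE 0.40, edgeR adjusted p = 0.595). It was 0.33 without WT replicate 1 and 1.22 without WT replicate 3, where the edgeR adjusted p was 0.315. Its WT libraries were also widely spread, and the 95% interval of the fold ran from 0.815 to 2.98.

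Plvap encodes the protein of the diaphragms that close the fenestrae and caveolae of ECs (chromosome 8, 71497754 to 71511769, minus strand). It was at 114, 204 and 353 CPM in WT, against 358, 199 and 288 CPM in KO. WT replicate 1 stood lowest, while WT replicate 3 and KO replicate 1 were nearly level at the top. The log2 fold change was 0.33 (SE 0.40, edgeR adjusted p = 0.77), and it was 0.011 without WT replicate 1, 0.10 without KO replicate 1 and 0.81 without WT replicate 3.

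Kit encodes a receptor tyrosine kinase (chromosome 5, 75574916 to 75656722, plus strand). It was at 36.1, 56.4 and 101 CPM in WT, against 96.9, 53.4 and 84.8 CPM in KO, which is the order of Plvap with WT replicate 3 at the top. The log2 fold change was 0.28 (SE 0.38, edgeR adjusted p = 0.791), and it turned to -0.0084 without WT replicate 1. Kit is also abundant in mast cells, whose 6 marker genes summed to 12.3 to 23.2 CPM in WT and 15.6 to 21.5 CPM in KO. Most of that was Hdc (9.62 to 20.6 CPM). Of the other mast cell genes, Fcer1a and Ms4a2 held 0 to 10 counts in a library. Mcpt4 held 12 to 68 counts, Tpsb2 5 to 29 and Cpa3 3 to 27. The part of mast cells in the level of Kit was not tested.

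Hilpda was the one member to go the other way. It encodes a small protein of lipid droplets that is induced by hypoxia and restrains the lipase encoded by Pnpla2 (chromosome 6, 29272488 to 29275446, plus strand). It was at 90.9, 77.8 and 114 CPM in WT, against 66.5, 50.1 and 70.4 CPM in KO. Every KO library was below every WT library, as they were for 9.2% of the genes tested. The WT mean was 94.3 ± 18.5 CPM (SD, n = 3), the KO mean 62.3 ± 10.8 CPM (SD, n = 3), and the log2 fold change -0.60 (SE 0.20, edgeR unadjusted p = 0.0164, adjusted p = 0.388). The 95% interval of the fold ran from 0.482 to 0.905, and the adjusted p was 0.197 with DESeq2. The unadjusted p was 0.0562 without WT replicate 3, 0.0574 without KO replicate 2 and 0.0526 with libraries scaled on the 15 EC genes. Pnpla2 itself ranged from 58.4 to 61.7 CPM among WT and from 50.6 to 68.6 CPM among KO libraries (log2 fold change 0.03).

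Ptn encodes pleiotrophin, a heparin-binding growth factor (chromosome 6, 36714929 to 36810220, minus strand). It rested on 28, 57 and 12 counts in WT and on 31, 32 and 23 counts in KO, or 0.685, 1.67 and 0.562 CPM and 1.33, 1.18 and 0.793 CPM. The KO libraries lay inside the WT range, with WT replicate 2 at the top and WT replicate 3 at the bottom. Its log2 fold change of 0.16 (SE 0.51, edgeR adjusted p = 0.925) turned negative without WT replicate 1 (-0.064), without WT replicate 3 (-0.11) and without KO replicate 1 (-0.0067). The 95% interval of the fold, 0.495 to 2.52, was wide.

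**Figure D2:**
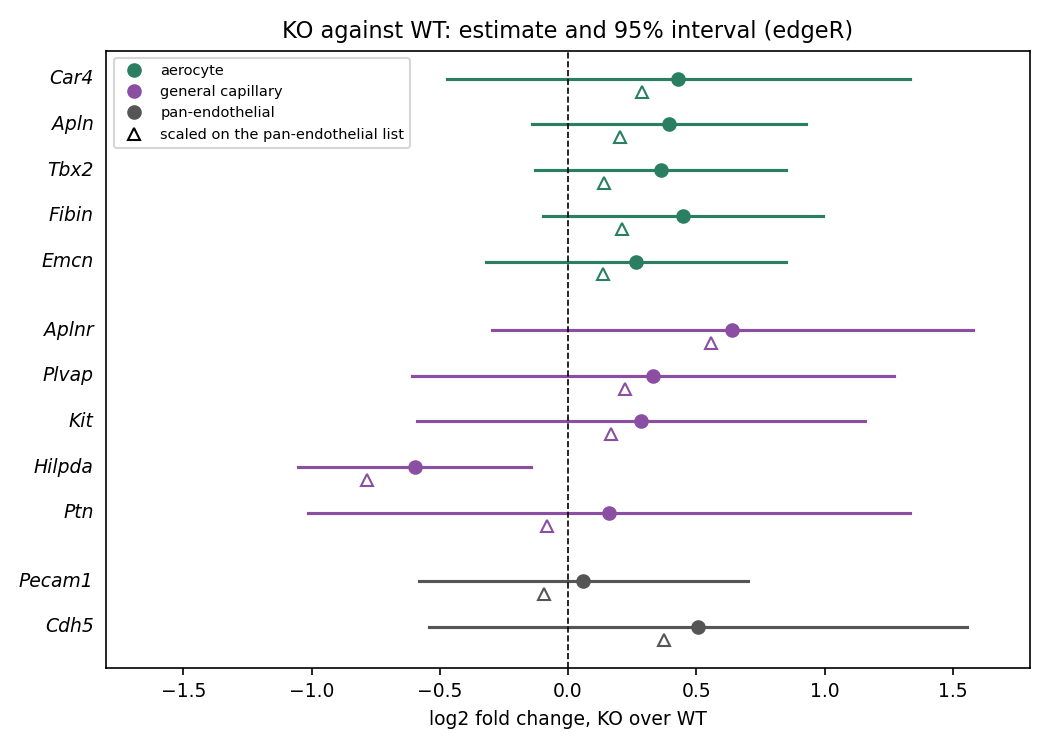
Log2 fold change between KO and WT (horizontal axis) of the 10 capillary genes and of Pecam1 and Cdh5, with the 95% interval of edgeR's fit as a line. Open triangles give the estimate when libraries are scaled on the 15 EC genes. All intervals but that of Hilpda cross 0.

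Across the 6 libraries, most members and the EC genes shared their low libraries. WT replicate 1 was the lowest library for 7 of the 10 members and for 9 of the 15 EC genes, and KO replicate 2 was the lowest KO library for 8 of the 10 and for all 15. Likeness to Car4 was measured as Pearson's r of log2 CPM over the 6 libraries, as a description with no test, since all genes share the same libraries and scaling. The general capillary genes Kit (0.98) and Plvap (0.97) had higher values than any other aerocyte gene, of which Apln (0.96) and Emcn (0.91) were the highest, and Aplnr (0.93) lay between these. Fibin was at 0.83 and Tbx2 at 0.55, whereas Hilpda (0.06) and Ptn (-0.02) were near 0.

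Among the 8013 genes with a mean log2 CPM above 3, the 5 most like Car4 were Pcdh1, Pxdn, Emp2, Sema3c and Pcdh12, with r from 0.98 to 0.99. Sema3c is itself a general capillary gene, Pcdh12 encodes an endothelial protocadherin, and Pxdn encodes a peroxidase of the basement membrane. The 5 most like Aplnr were Cd300lg, Antxr2, Tspan13, Egflam and Esm1, also at 0.98 to 0.99. Cd300lg and Esm1 encode proteins of ECs. Each of the 10 genes had a positive log2 fold change, from 0.30 for Emp2 to 0.63 for Cd300lg, and 0 of them passed the test.

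**Figure D3:**
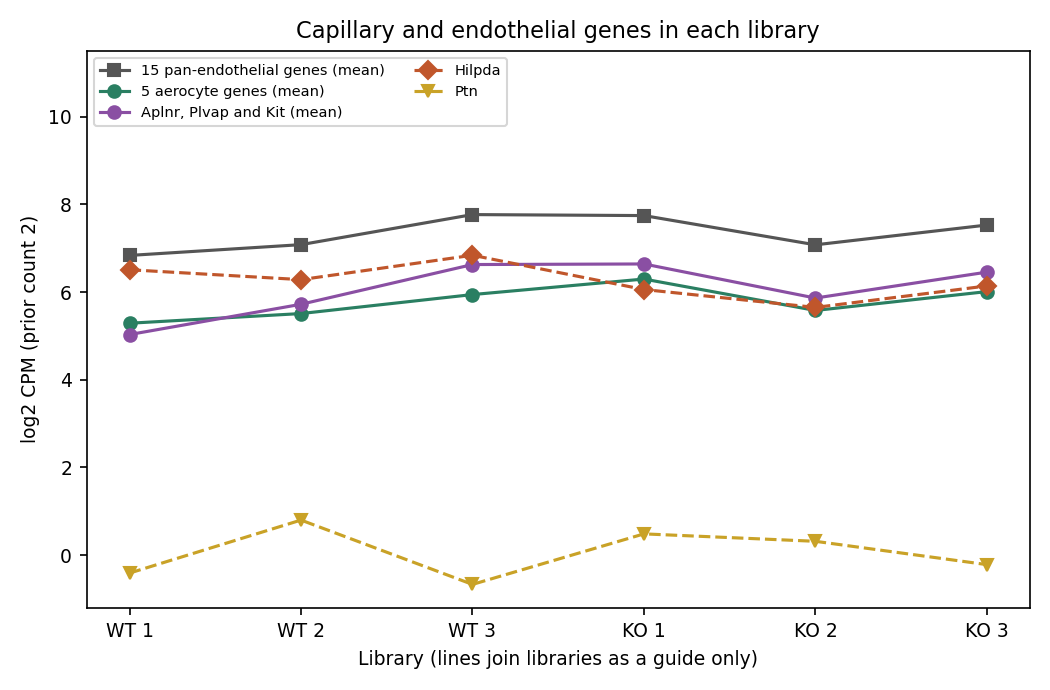
Mean log2 CPM (vertical axis, log scale) of the 15 EC genes, the 5 aerocyte genes and Aplnr, Plvap and Kit, with Hilpda and Ptn drawn singly, in each of the 6 libraries. The 3 means are lowest in WT replicate 1, while Hilpda is highest in the WT libraries and Ptn runs by itself near 0.

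Each member was expressed relative to the mean log2 CPM of the 15 EC genes in the same library. The range of Car4 over the 6 libraries then narrowed from 1.65 to 0.75 on the log2 scale, that of Apln from 0.96 to 0.41, that of Kit from 1.48 to 0.55 and that of Plvap from 1.65 to 0.74. Those of Fibin, Emcn and Aplnr narrowed as well. The range of Hilpda instead grew from 1.19 to 1.36 and that of Ptn from 1.47 to 2.15, while that of Tbx2 hardly changed (0.91 and 0.92). Relative to the EC genes, Hilpda was at -0.33, -0.80 and -0.93 in WT and at -1.69, -1.43 and -1.39 in KO, so the groups moved further apart.

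On the same scale Aplnr was at -3.75, -3.41 and -3.01 in WT and at -2.91, -2.87 and -2.74 in KO. The KO libraries were all above the WT libraries by this measure, which they were not in CPM, although WT replicate 3 and KO replicate 1 were nearly level. The mean of the 5 aerocyte genes was at -1.55, -1.57 and -1.82 in WT and at -1.45, -1.50 and -1.52 in KO, a difference of 0.16 with no overlap but with the groups close to each other. These values are descriptions and were given no test. The share of all genes whose groups do not overlap relative to the EC genes was not computed. When edgeR was run with libraries scaled on the 15 EC genes, the median log2 fold change of all genes tested moved from 0.03 to -0.16. Relative to that median the aerocyte genes were 0.29 to 0.44 higher. Of the general capillary genes, Aplnr was 0.72, Plvap 0.38, Kit 0.32 and Ptn 0.076 higher, and Hilpda was -0.63. All 10 had an adjusted p of at least 0.987.

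The balance between both capillary states was taken within each library, as the mean log2 CPM of the 5 aerocyte genes minus that of the 5 general capillary genes. Its values were 1.05, 0.66 and 0.73 for WT, against 1.003, 0.87 and 0.95 for KO. The KO libraries lay inside the WT range, and the means differed by 0.13 (0.81 ± 0.21 in WT and 0.94 ± 0.07 in KO, SD, n = 3), less than the SD among WT libraries. The sign of this difference depended on the genes averaged, since with Aplnr, Plvap and Kit alone as the general capillary genes, a choice made after the values of Hilpda and Ptn were seen, it was -0.14. The values were then 0.26, -0.21 and -0.68 in WT and -0.34, -0.28 and -0.44 in KO, again with the KO libraries inside the WT range.

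The ligands and receptors that join both states were compared in the same way. The log2 CPM of Apln minus that of Aplnr, which is not scaled for length and is read only across libraries, was 2.35, 1.84 and 1.25 in WT and 1.57, 1.46 and 1.25 in KO. It was highest in WT replicates 1 and 2, and the groups met at the lower end. For Kitl minus Kit it was 2.60, 1.86 and 1.73 in WT and 1.86, 2.17 and 1.82 in KO, with the KO libraries inside the WT range. For Car4 minus Plvap, an aerocyte against a general capillary gene, it varied least of the 3, at -1.53, -1.848 and -1.78 in WT and -1.52, -1.78 and -1.76 in KO.

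Of 18 genes listed as partners in these signals and in those of VEGF, endothelin and pleiotrophin, 16 were tested. Of these, 0 were called in either direction by edgeR, DESeq2 or limma-voom. In edgeR 1 had an unadjusted p under 0.05, against 10.3% of all genes. That gene was Kdr, which encodes VEGFR2. Kdr was at 93.3, 108 and 138 CPM in WT, against 264, 161 and 195 CPM in KO. Each KO library exceeded each WT library, as for 8.59% of the genes tested, and the log2 fold change was 0.87 (SE 0.24, adjusted p = 0.313 by edgeR, 0.0541 by DESeq2). Among the 16 tested, 2 were separated in this way. The other was Nrp1, at 117, 354 and 337 CPM in WT, against 519, 435 and 465 CPM in KO. Its log2 fold change was 0.81 (SE 0.39, edgeR adjusted p = 0.513). Ptprz1, a receptor for pleiotrophin, had a value level with that of Kdr at 0.87 (SE 0.45, edgeR adjusted p = 0.538) from 23 to 77 counts per library, and Edn1, which encodes endothelin-1, the lowest at -0.42 (SE 0.23, edgeR adjusted p = 0.548). Apela, the other ligand of Aplnr, held 11 counts in WT replicate 2 and 0 in the other 5 libraries, and Alk held 0 to 5 counts, so neither was tested. Sdc1 and Sdc4, syndecans that bind pleiotrophin, were the most abundant per length of the list (86.7 and 75.7 CPM per kilobase). Sdc1 was at 85.8, 526 and 173 CPM in WT, against 370, 438 and 389 CPM in KO.

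The lists were widened to further genes of each state. Of 12 other aerocyte genes, 0 were called by any of the 3 tools. The log2 fold change was positive for 11 of 12, against 7911 of all 14625 genes tested, with a median of 0.33. An unadjusted p under 0.05 in edgeR was found for 2, both higher in KO, against 5.62% of all genes. The pair was Kdr and Rprml, which had a log2 fold change of 0.68 (SE 0.25, edgeR adjusted p = 0.451) from 58 to 106 counts per library. The lowest was Prx, at -0.36 (SE 0.22, edgeR adjusted p = 0.593). Ednrb, the endothelin receptor that is a defining aerocyte gene, was at 16.3, 26.5 and 40.6 CPM in WT, against 73.3, 26.5 and 43.5 CPM in KO. KO replicate 1 stood well above the rest, KO replicate 3 just above the highest WT library and KO replicate 2 inside the WT range, and the log2 fold change was 0.79 (SE 0.42, edgeR adjusted p = 0.551). Of the pair highest per length, Cyp4b1 (225 CPM per kilobase) and Prx (81.5), Cyp4b1 was highest in WT replicate 2 and KO replicate 2 (698 and 812 CPM). The airway gene Cyp2f2 was highest in these same libraries of each group (16446 and 21566 CPM). The part of airway cells in the level of Cyp4b1 was not tested.

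Of 12 other general capillary genes, 0 were called by any of the 3 tools. The log2 fold change was positive for 10 of 12, against 7911 of all 14625 genes tested, with a median of 0.29. An unadjusted p under 0.05 in edgeR was found for 1, higher in KO, against 5.62% of all genes. That gene was Glp1r, the receptor of glucagon-like peptide 1, at 7.34, 6.08 and 6.74 CPM in WT, against 14.1, 8.83 and 13.0 CPM in KO. All KO libraries were above the WT libraries, as for 8.59% of the genes tested, and the log2 fold change was 0.83 (SE 0.21, edgeR adjusted p = 0.287). The highest of the list was Il7r, at 1.01 (SE 0.51, edgeR adjusted p = 0.531) from 17 to 61 counts per library, and the lowest was Gpihbp1, which anchors lipoprotein lipase on capillaries, at -0.08 (SE 0.33, edgeR adjusted p = 0.944). Cd36 and Cd93 were the highest per length (414 and 47.2 CPM per kilobase). Cd36, a fatty acid transporter, was at 481, 2036 and 945 CPM in WT, against 1699, 2015 and 1738 CPM in KO.

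**Figure D4:**
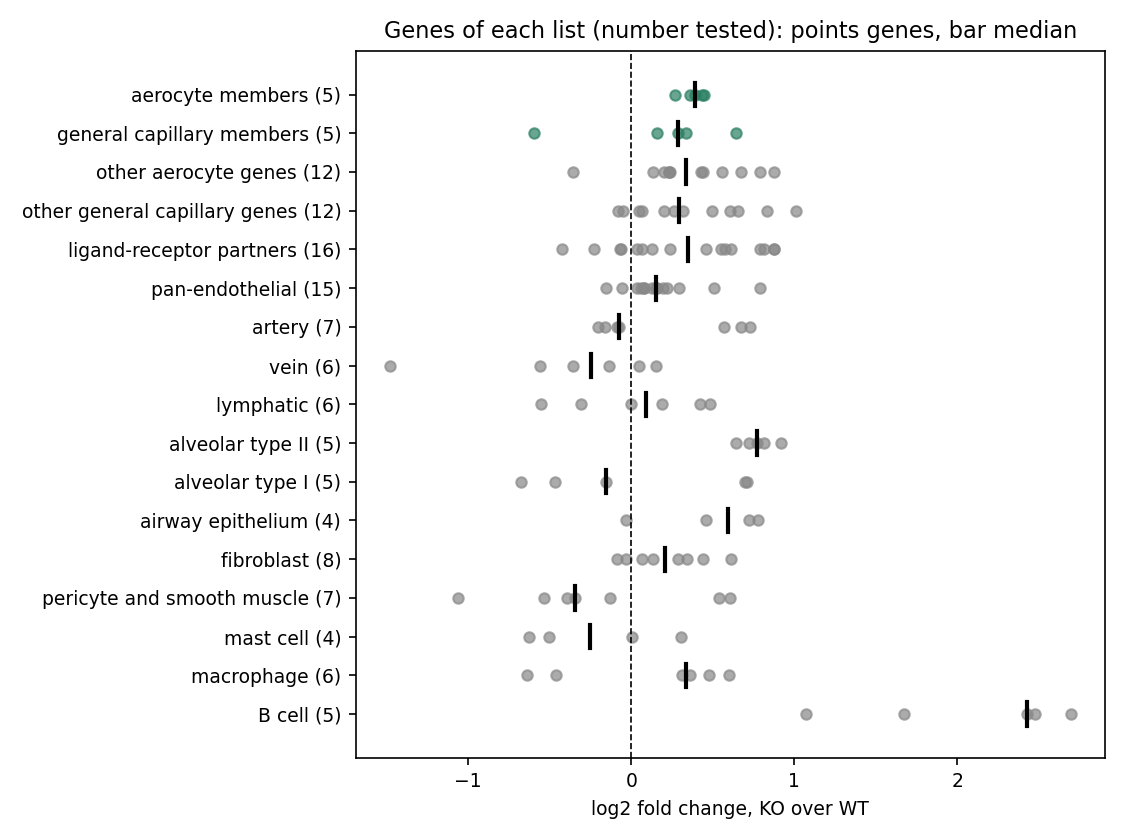
Log2 fold change between KO and WT (horizontal axis) of each tested gene of each list (points, with the number tested in brackets) and the list's median (bar). The aerocyte and general capillary genes have medians of 0.39 and 0.28, below those of the alveolar type II (0.77) and B cell (2.43) lists.

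Transcripts of other lung cells varied between the same libraries. The 5 alveolar type II genes summed to 4934, 46390 and 14404 CPM in WT and to 36707, 44951 and 36566 CPM in KO. WT replicates 1 and 3 were lowest, as they were for Sdc1 and Cd36 but not for Car4, Plvap or Kit. Their median log2 fold change was 0.77, with 5 of 5 positive, against 7911 of all 14625 genes tested, and 0 called. The 5 alveolar type I genes summed to 1213 to 1840 CPM in WT and 1540 to 1954 CPM in KO, and the 4 airway genes to 15362 to 40423 and 33576 to 56788 CPM, with 0 called in both lists. The 8 fibroblast genes summed to 556 to 957 CPM in WT and 776 to 1056 CPM in KO, and the 6 macrophage genes to 43.3 to 102 and 71.7 to 139 CPM, again with 0 called. The 5 B cell genes summed to 8.13 to 18.03 CPM in WT and 58.2 to 60.6 CPM in KO. Each KO library was above each WT library for 5 of 5, against 8.59% of all genes. By edgeR 1 of them (Ms4a1) was called higher, against 0.0342% of all genes. DESeq2 called 4, against 1.21% of the genes it tested, and limma-voom 2, against 0.178%. The highest and lowest log2 fold changes were those of Sftpc (0.92) and Lamp3 (0.64) among alveolar type II genes, Ager (0.71) and Rtkn2 (-0.68) among type I genes, and Cyp2f2 (0.78) and Foxj1 (-0.032) among airway genes. They were those of Lum (0.61) and Col1a1 (-0.086) among fibroblast genes, Csf1r (0.60) and Marco (-0.64) among macrophage genes, Hdc (0.30) and Cpa3 (-0.63) among mast cell genes, and Ms4a1 (2.69) and Pax5 (1.07) among B cell genes. The part of these cells in the values of the capillary genes was not tested.

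Other parts of the vessel wall gave no call either by the quasi-likelihood test. Of the artery genes the highest log2 fold change was that of Dll4 (0.73) and the lowest that of Gja5 (-0.20), of the vein genes Nr2f2 (0.15) and Ackr1 (-1.48), and of the lymphatic genes Prox1 (0.48) and Lyve1 (-0.55). Among pericyte and smooth muscle genes they were Pdgfrb (0.60) and Tagln (-1.06), and DESeq2 called Tagln (adjusted p = 0.000497), which edgeR did not (adjusted p = 0.14). Among the 15 EC genes they were Clec14a (0.79, adjusted p = 0.468) and Ramp2 (-0.16).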

How the data were processed

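RNA-seq libraries of CD31-enriched lung cells (3 WT, 3 KO) were analyzed. For each library the authors deposited a table of raw read counts by gene, made by featureCounts 2.0.0 (Subread) on uniquely aligned reads, summed over exons of the Ensembl release 84 annotation of GRCm38 on the reverse strand. The submitters' processing notes name STAR 2.5.4b for alignment. Reads overlapping several genes or aligned to several places were not counted. Depth was 24464324 to 35184063 counts per library, and genes under 1 CPM rest on few counts.

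Groups came from the sample titles. Symbols were assigned to 47224 of 47729 genes by Ensembl identifier. Genes were kept by filterByExpr, scaled by TMM and tested in R 4.3.3 with edgeR 4.0.16 (glmQLFit and glmQLFTest, default options, genotype as the only term), with Benjamini-Hochberg adjustment over 14625 genes and a threshold of 0.05. Log2 CPM used a prior count of 2. Alternatives were DESeq2 1.42.0, limma-voom (limma 3.58.1), RLE, total-count and pan-endothelial scaling, other filters, another dispersion option, a replicate block and each library left out in turn. No pair of libraries agreed within sampling noise (lowest chi-square per degree of freedom, 37.0).

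The members, lists and tests were chosen with earlier results of these data known. The naming rule took all members, Pecam1 and Cdh5, the called, highest and lowest genes of each list, the pair highest per length in the aerocyte, general capillary and partner lists, and the 5 genes most like Car4 and Aplnr. Ednrb, Rprml, Glp1r, Nrp1, Pnpla2, Apela, Alk, Kitl, Fcer1a, Ms4a2, Mcpt4, Tpsb2 and the motifs searched were chosen after values were seen. Promoter windows came from RefSeq (GRCm38).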

Additional observations from a re-analysis of the deposited data

How the results depend on the processing

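The count of 0 called held for the 5 aerocyte and for the 5 general capillary genes under every tool, scaling, filter and left-out library tried. The adjusted p of Hilpda came nearest, at 0.0561 without WT replicate 2, with a log2 fold change between -0.78 and -0.46 over all alternatives. The other aerocyte and general capillary genes but Kit and Ptn, and Cdh5, stayed positive, but their size depended on single libraries. With a library left out, Car4 ran from 0.089 to 0.87, Apln from 0.17 to 0.58, Tbx2 from 0.19 to 0.50, Fibin from 0.22 to 0.64, Emcn from 0.049 to 0.52, Aplnr from 0.33 to 1.22, Plvap from 0.011 to 0.81 and Cdh5 from 0.15 to 0.96. The lowest values came without WT replicate 1 or KO replicate 1 (for Tbx2, KO replicate 3) and the highest without WT replicate 3 (for Tbx2 and Fibin, KO replicate 2). The order of the genes by fold change changed between settings. Kit turned to -0.0084 without WT replicate 1 and ran up to 0.75 with a library left out, and Ptn turned to -0.081 with pan-endothelial scaling and to between -0.11 and 0.76 with a library left out. Pecam1 turned to -0.048 with total counts and -0.095 with pan-endothelial scaling, and ran from -0.15 to 0.29 with a library left out. The cause was not tested.

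The number of genes called over the whole table moved from 16 to 187 with DESeq2, 26 with limma-voom, 26 with RLE scaling, 123 with total counts, 48 with pan-endothelial scaling and 152 with no filter, and from 0 to 791 with a library left out (791 without WT replicate 2, 0 when a KO library was the one omitted, with 986 to 1112 genes at an unadjusted p under 0.05). With the replicate block it was 0, with 1776 genes at an unadjusted p under 0.05. The numbers did not pair the samples, as the correlation of same-numbered deviations was -0.08, 0.22 and 0.01 and not every library was closest to its own number. The balance of aerocyte and general capillary genes moved from 0.13 to 0.34 with medians and to -0.14 without Hilpda and Ptn, and ran from 0.05 to 0.25 with a library left out.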
